A study of Mus musculus with 18 samples.

Results

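Ccl2, Ccl7, Ccl12 and Ccl8 are the mouse CC chemokines of the monocyte chemoattractant protein type, and Ccr2 is the receptor through which blood monocytes sense several of them. These 5 genes were taken by symbol from the 55401 genes counted in each of 18 RNA sequencing libraries, and their levels in CPM (read pairs of a gene scaled to a common library total) were compared across 6 groups of 3 libraries. The study asked what the gene Smim30, which encodes a small integral membrane protein, does in mouse macrophages (C57BL/6J strain) given bacterial lipopolysaccharide (LPS), an agonist of the receptor TLR4. Every group received 5 ng/ml LPS for 6 hours, and no group without LPS was analysed here, so none of the values below shows an induction by LPS. Peritoneal macrophages, which are washed from the abdominal cavity of mice, came from wild-type mice (WT) or from mice carrying a Smim30 mutation (Mut). The allele of that mutation is not given in the sources used here. Mutant macrophages from the same kind of animal received a control adenovirus (MutAdCtrl) or an adenovirus that expresses Smim30 (MutAdSmim30) 6 hours after seeding and were left with it for 24 hours before LPS. Both virus groups therefore carry the mutation, a virus and a longer culture. IC-21 is an established mouse peritoneal macrophage line transformed by a simian virus. It was transfected with a control siRNA (siCtrl) or an siRNA against Smim30 (siSmim30) for 24 hours before LPS, and both of its groups share the line and the transfection.

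CCL2 is the chemokine that gave the family its name: it is secreted by macrophages, fibroblasts and endothelial cells after inflammatory signals and binds CCR2 on monocytes, which follow the gradient out of bone marrow and blood into tissue. CCL7 and the mouse chemokine CCL12 also bind CCR2, while mouse CCL8 acts mainly through CCR8. CCR2 is a marker of monocytes and of macrophages recently derived from them, and the large resident macrophages of the peritoneal cavity carry little of it.

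The 4 ligand genes lie in 1 cluster on the forward strand of chromosome 11 (GRCm38). Ccl2 (ENSMUSG00000035385.5) spans chr11:82035571-82037453, Ccl7 (ENSMUSG00000035373.2) starts 10.1 kb further on at chr11:82045712-82047525, Ccl12 (ENSMUSG00000035352.3) lies 66.3 kb on at chr11:82101845-82103400, and Ccl8 (ENSMUSG00000009185.2) lies 79.6 kb on at chr11:82115185-82116799. Each of the 4 has 3 exons. Ccl11, the eotaxin gene, starts 22.3 kb after the start of Ccl2, between Ccl7 and Ccl12, and had 0 counts in all 18 libraries. Ccr2 (ENSMUSG00000049103.14) lies on chromosome 9, at chr9:124101950-124113557 on the forward strand, and has 4 protein-coding transcripts.

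The promoters of Ccl12 and Ccl8 are shown because these genes of the same cluster were detected in different cells: Ccl12 mainly in the line and Ccl8 only in the primary cells. Each sequence is the 250 bases before the start of the gene, 5′ to 3′ on the forward strand, at chr11:82101595-82101844 for Ccl12 and chr11:82114935-82115184 for Ccl8 (RefSeq, GRCm38.p6). Capitals mark the TATA box letters TATAAA. Entries were matched by symbol, and none was found for Ccl2 or Ccl7.

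Ccl12: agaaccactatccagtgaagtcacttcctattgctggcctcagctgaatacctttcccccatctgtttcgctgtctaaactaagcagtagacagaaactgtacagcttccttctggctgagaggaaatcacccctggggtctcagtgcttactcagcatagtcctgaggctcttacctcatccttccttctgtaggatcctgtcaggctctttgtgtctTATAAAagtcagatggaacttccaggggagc

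Ccl8: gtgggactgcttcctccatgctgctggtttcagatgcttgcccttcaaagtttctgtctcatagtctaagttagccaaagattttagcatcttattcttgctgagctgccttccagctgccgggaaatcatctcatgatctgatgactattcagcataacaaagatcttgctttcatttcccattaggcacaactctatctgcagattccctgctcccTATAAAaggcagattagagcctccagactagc

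TATAAA begins 31 bases before the start of Ccl12 and 32 bases before that of Ccl8, and 7.59% of 32851 promoter windows of this length hold it on the given strand. Letters searched for 5 families of LPS-responsive factors, on both strands, had no match in either window. They were the NF-kB motif (in 7.25% of all windows), the AP-1 motif TGANTCA (6.75%), the C/EBP motif TTGCNNAA (9.56%), the STAT motif TTCNNNGAA (7.02%) and the interferon-stimulated element, GAAA and GAAA with a pair of bases of any kind between them (2.98%). The search says only that these letters are not in these windows.

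The libraries held 6855245 to 13456857 assigned read pairs, so that 3 counts, the floor used for detection, stood for 0.223 to 0.438 CPM. The labels do not say that triplicates came from separate mice or cultures. The p-values therefore cover only how far these libraries spread, and that spread may be technical. Smim30 was 48.1 ± 3.45 CPM (SD, n = 3) in WT and 48.7 ± 5.65 in Mut, so its level does not mark the mutant libraries. It was 43.9 ± 1.86 CPM in MutAdCtrl and 53.1 ± 1.86 in MutAdSmim30 (edgeR quasi-likelihood test, adjusted p = 0.0052), and fell from 21.4 ± 1.26 in siCtrl to 10.7 ± 1.69 in siSmim30 (log2 fold change -0.97, adjusted p = 6.17e-08). The 9 macrophage markers, among them Adgre1, Cd68 and Csf1r, were above the floor in all 6 groups, with summed levels of 10557 to 12518 CPM in the primary groups and 3536 to 3777 in IC-21. Of these sums Lyz2 alone gave 5907 to 7618 CPM in the primary libraries and 656 to 751 in IC-21. Gata6 and Timd4, which mark large peritoneal macrophages, were at 0 in IC-21. Of the 11 listed markers of that type, 5 were at or under 3 counts in each IC-21 group. The list summed to 275 to 302 CPM in siCtrl and 284 to 291 in siSmim30, against 1022 to 1062 in WT. In siCtrl against WT, 7 of its 9 tested genes fell and 1 rose, where 80.3% of all genes were called. The 7 T and NK cell markers were at or under 3 counts in every group. In bulk RNA, fewer cells of a type and less RNA per cell cannot be told apart.

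Ccl2 was the most abundant of the 4 ligands per length in every group, and it was highest in both IC-21 groups. On the scale of CPM per kilobase of exon (RPKM), its mean was 32.4 in WT, 57.1 in Mut, 50.2 in MutAdCtrl, 51.9 in MutAdSmim30, 140 in siCtrl and 239 in siSmim30. Mean Ccl7 in the same order was 4.58, 7.28, 5.63, 6.79, 51.1 and 91.3 RPKM. Both genes thus had the same order of groups, siSmim30, siCtrl, Mut, MutAdSmim30, MutAdCtrl and WT. For Ccl2 the ranges of MutAdSmim30 overlapped those of Mut and of MutAdCtrl, its neighbours in that order, and for Ccl7 only Mut and MutAdSmim30 overlapped among neighbours. Ccl12, Ccl8 and Ccr2 were scarce, with group means of at most 4.58, 1.59 and 0.381 RPKM.

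**Figure D1:**
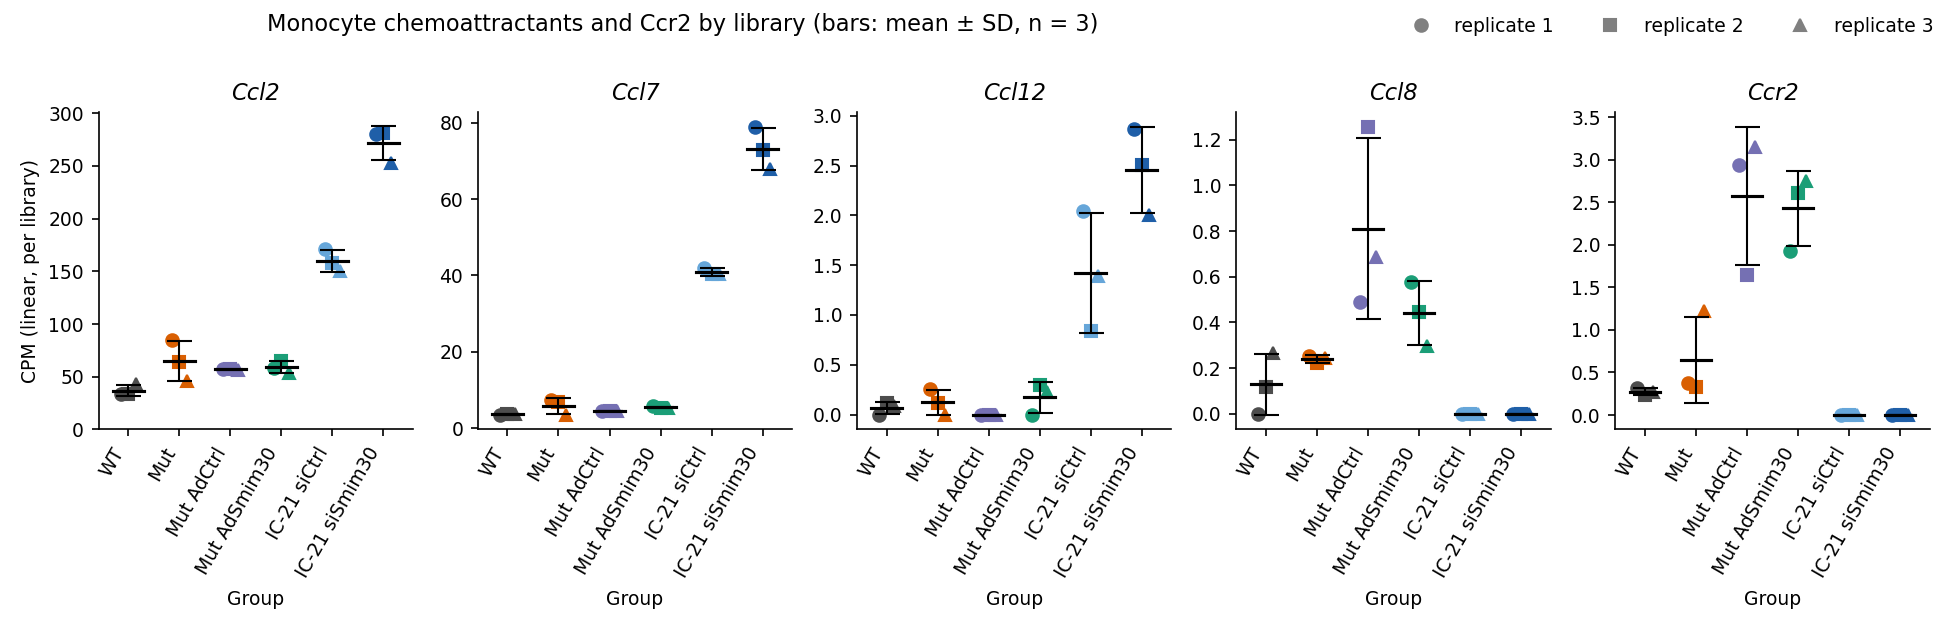
CPM (linear axis, a separate scale for each gene) of the 5 genes in each of the 18 libraries, by group, with bars for mean ± SD (n = 3). Ccl2 and Ccl7 stand highest in the IC-21 groups, Ccl12 is at or near 0 outside IC-21, and Ccl8 and Ccr2 are at 0 in IC-21 and highest in the virus groups.

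The knockdown comparison asked how IC-21 cells respond to LPS with less Smim30, and both abundant ligands rose. Ccl2 was 171, 158 and 151 CPM in the siCtrl libraries (replicates 1, 2 and 3) and 281, 281 and 253 in the siSmim30 libraries. Every knockdown library stood above every control library, as for 7.86% of the genes tested, with means of 160 ± 10.2 and 272 ± 16.4. The fold change was 1.73 (log2 0.79, SE 0.04, 95% interval 0.70 to 0.87, adjusted p = 7.41e-18, edgeR quasi-likelihood test), which was the smallest p-value among the 13576 genes tested.

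Ccl7, whose gene is the nearest neighbour of Ccl2 in the cluster, was 42.0, 40.5 and 40.3 CPM in siCtrl and 78.9, 72.7 and 67.8 in siSmim30. The groups did not overlap, and the spread within siCtrl, 0.959 CPM, was small beside the difference. Ccl7 rose 1.81-fold (log2 0.86, SE 0.07, 95% interval 0.72 to 1.00, adjusted p = 7.84e-15, edgeR) and ranked 4 by p-value among all genes. Of the 3 members tested, 2 were called higher, where 2.39% of all genes tested were called higher and 3.48% in either direction. With library totals as the scaling in place of TMM, the calls over all genes were 269 higher of 495, against 324 of 472 with TMM, and Ccl2 and Ccl7 were called higher under both.

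Ccl12, the third CCR2 ligand, had 14, 10 and 12 counts in siCtrl (2.04, 0.834 and 1.39 CPM) and 24, 22 and 15 in siSmim30 (2.87, 2.50 and 2.00 CPM). Its groups overlapped, since the highest control library lay just above the lowest knockdown library. The fold of 1.87 did not pass the test over all genes (log2 0.90, SE 0.36, 95% interval 0.19 to 1.61, adjusted p = 0.18, edgeR), and at this depth its interval spans the sizes seen for Ccl2 and Ccl7. Ccl8 and Ccr2 had 0 counts in all 6 IC-21 libraries, which allows up to 0.109 CPM over siCtrl and 0.122 CPM over siSmim30 (counting error only, as for the other floors and intervals from counts), and were not tested.

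The ratio of Ccl2 to Ccl7 overlapped between knockdown and control. Per length it was 2.75 ± 0.114 in siCtrl (range 2.63 to 2.86) and 2.62 ± 0.110 in siSmim30 (range 2.50 to 2.72). In the 12 primary libraries the ratio was 6.40 to 9.40 with a median of 8.12, so that no primary library overlapped the line. The RPKM of the 4 ligands together was 85.4 to 89.4% Ccl2 and 9.51 to 13.3% Ccl7 in the primary libraries, against 70.4 to 72.7% Ccl2 and 25.4 to 28.1% Ccl7 in IC-21.

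**Figure D2:**
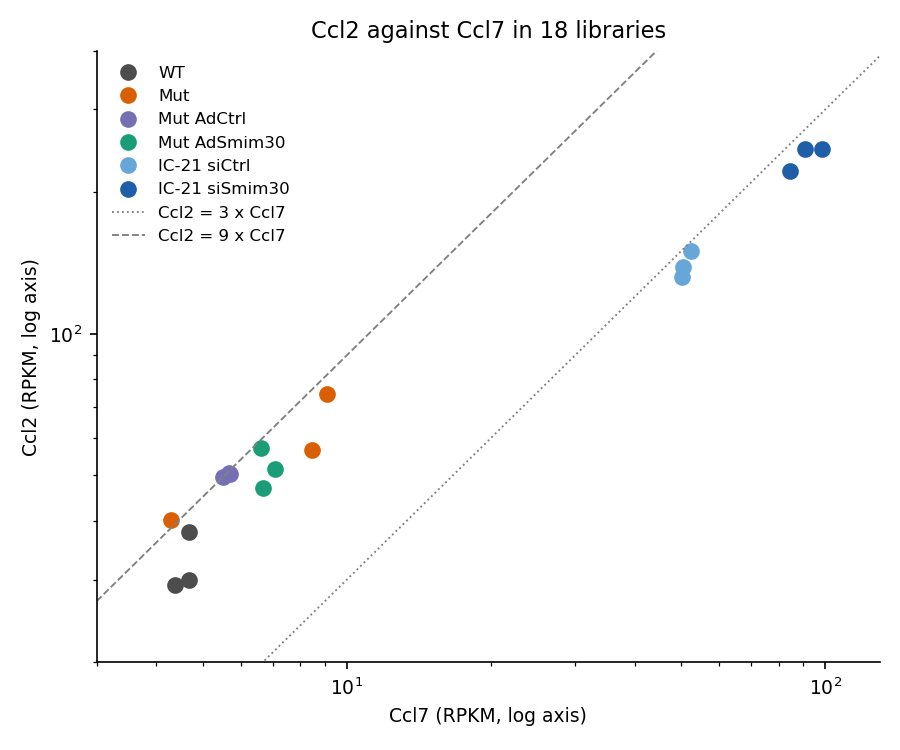
Ccl2 against Ccl7 in RPKM (both axes log) for the 18 libraries, coloured by group, with grey lines where Ccl2 equals 3 or 9 times Ccl7. The IC-21 libraries lie near the lower line, at ratios of 2.50 to 2.86, and the primary libraries near the upper one, at 6.40 to 9.40.

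The mutation comparison asked the same of primary macrophages, where the mean levels of Ccl2 and Ccl7 were higher in Mut but neither passed the test. Ccl2 was 33.3, 34.1 and 43.1 CPM in WT and 84.6, 64.4 and 45.8 in Mut. All 3 Mut libraries stood above all 3 WT libraries, as they did for 12.8% of the genes tested, but replicate 3 of Mut came close to the highest WT library. The fold was 1.71 (log2 0.78, SE 0.29, 95% interval -0.01 to 1.56, adjusted p = 0.284, edgeR), and the SD in Mut was 19.4 CPM against 5.45 in WT.

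Ccl7 was 3.50, 3.75 and 3.75 CPM in WT and 7.30, 6.76 and 3.43 in Mut. The first pair of Mut libraries stood well above WT and replicate 3 below it, so that the groups overlapped. The fold was 1.53 (log2 0.62, SE 0.25, 95% interval 0.10 to 1.13, adjusted p = 0.17, edgeR). Of the 2 members tested 0 were called by edgeR or DESeq2, where 6.3% of all genes were called by edgeR, 3.68% as higher. The unadjusted p was 0.0522 for Ccl2 and 0.0207 for Ccl7. Limma-voom called Ccl2 (adjusted p = 0.0139), and edgeR called both genes when all 18 libraries were fitted together (adjusted p = 0.0262 and 0.0449).

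Replicate 3 of Mut decided both edgeR calls. Without that library the log2 difference of Ccl2 was 0.99 (adjusted p = 0.0135, edgeR) and that of Ccl7 0.92 (adjusted p = 0.00793), and both were called. With any other library left out instead, neither was called. The same library was the one with 15 Ccr2 counts, described below. It was the deepest Mut library, with 12246311 read pairs, and it was singled out after its values were seen.

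**Figure D3:**
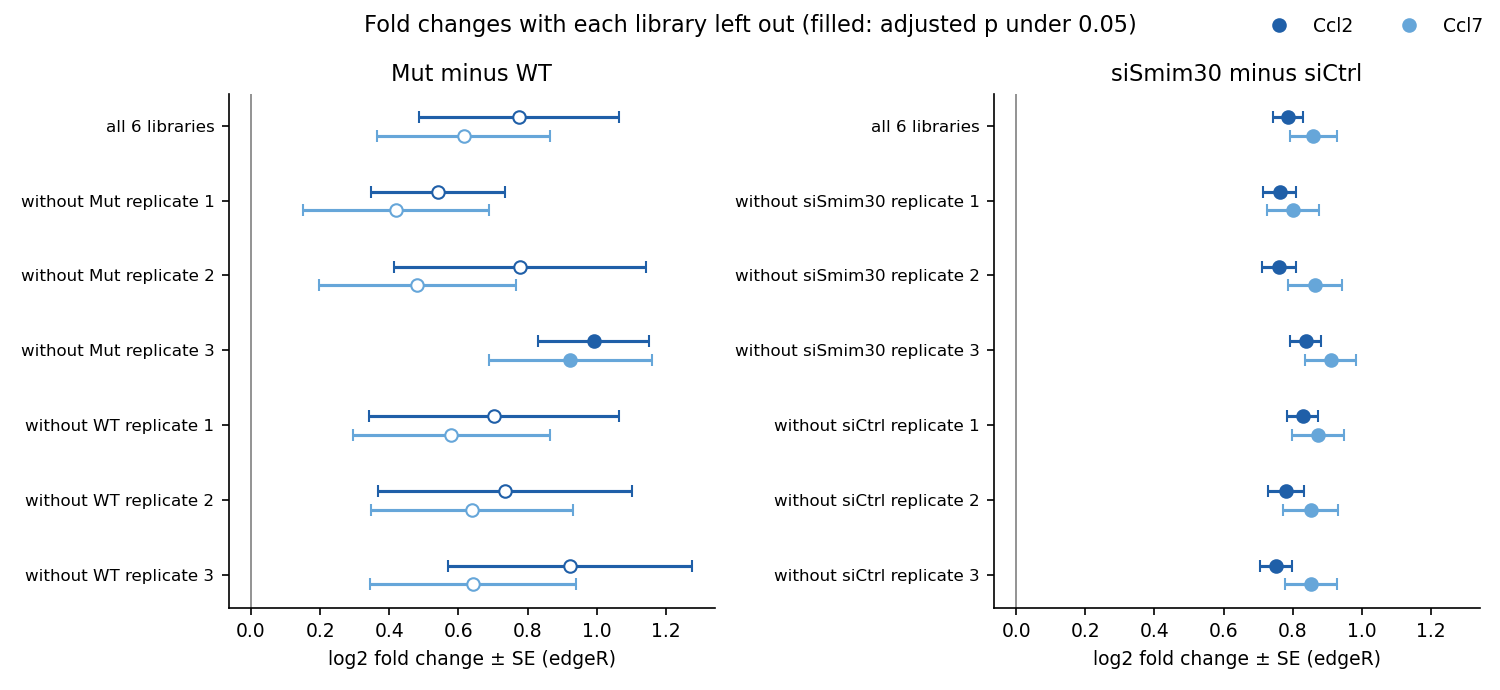
log2 fold change ± SE (edgeR) of Ccl2 and Ccl7 with all 6 libraries and with each library left out in turn, for Mut minus WT and siSmim30 minus siCtrl, with filled points for an adjusted p under 0.05. The knockdown values stay between 0.75 and 0.91 and are all filled, while the mutation values run from 0.42 to 0.99 and are filled only without replicate 3 of Mut.

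Some other measures moved with the mutant libraries. The summed level of the 16 type I interferon response genes was 1735, 2066 and 1878 CPM in WT and 3756, 2786 and 2417 in Mut. Within Mut it had the same order of replicates as Ccl2, highest in replicate 1 and lowest in replicate 3. Ccl3, Ccl4 and Ccl5 had that order in Mut too. Within WT the orders differed, since the list was highest in replicate 2 and Ccl2 in replicate 3. The summed level of the list was 950, 905 and 914 CPM in MutAdCtrl, where 14 of the 16 fell against Mut with a median of -1.95. In that comparison 26.5% of all genes tested were called lower, and Ccl2 stood at -0.19 and was not called. In Mut against WT, 4 of these 16 genes rose and 0 fell (3 rose with RLE scaling and 5 with library totals), with a median log2 difference of 0.58 against -0.01 for all genes. They were Cxcl10, a chemokine for T cells (log2 0.94, adjusted p = 0.00261, edgeR), Rtp4, Isg15 and Stat2. For this list and those below, 3.68% of all genes tested in Mut against WT were called higher and 6.3% in either direction. The 7 dendritic cell markers summed to 12.5 to 14.1 CPM in WT and 24.7 to 31.0 in Mut, and 2 of 4 tested rose, Batf3 and Ccl22. The 10 monocyte and small peritoneal macrophage markers summed to 84.8 to 92.4 and 102 to 109 CPM, and 1 of 7 tested rose, Ms4a4c. The 7 B cell markers summed to 83.6 to 93.3 CPM in WT and 61.7 to 64.4 in Mut, where 1 of 5 tested fell, Cd22. The 11 large peritoneal macrophage markers summed to 1022 to 1062 CPM in WT and 975 to 1021 in Mut. Within these sums Thbs1 alone was 248 to 260 CPM in WT and 153 to 169 in Mut, more than the gap between the sums. Of the 8 tested, 2 fell, Thbs1 and Prg4, and 0 rose, with a median log2 difference of -0.54. Of the 9 general macrophage markers 2 rose, Cd14 and Fcgr1, and 1 fell, Lyz2, and they summed to 11797 to 12518 CPM in WT and 10762 to 11210 in Mut. Most of these sums was Lyz2, at 7173 to 7618 CPM in WT and 5907 to 6239 in Mut, so they do not show a fall of the list. None of the markers on these lists was at 0 in all libraries of either group. A ribosomal RNA gene took 1.74 to 2.49% of counts in WT and 0.399 to 1.03% in Mut. The part of these in the Ccl2 and Ccl7 values was not tested.

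In the mutation comparison the scarce members gave few counts. Ccl12 had 0, 1 and 1 counts in WT and 2, 1 and 0 in Mut, and all of these are at or under the floor. Ccl8 had 0, 1 and 3 counts in WT and 2, 2 and 3 in Mut, a ratio of 1.75 with a 95% counting interval of 0.444 to 8.13. That interval includes no change, and at this depth differences within it in either direction are not resolved. Ccr2 had 3, 2 and 3 counts in WT (0.274 ± 0.0423 CPM) and 3, 3 and 15 in Mut (0.645 ± 0.503). The Mut to WT ratio of Ccr2, 2.62 with a counting interval of 1.11 to 6.84, rests on replicate 3, since the other Mut libraries had 3 counts each, as the highest WT libraries did. These 3 genes did not pass the count filter here.

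The overexpression comparison asked what an adenovirus carrying Smim30 does in mutant macrophages, and no member was called. Counts of Smim30 itself were 1.21-fold higher with its virus (log2 0.28), so the values do not show what a larger rise would do. Ccl2 was 57.3, 57.6 and 56.4 CPM in MutAdCtrl and 58.7, 65.2 and 53.4 in MutAdSmim30. The groups overlapped, and the log2 difference was 0.05 (SE 0.06, 95% interval -0.07 to 0.17, adjusted p = 0.839, edgeR). The interval of Ccl2 leaves room for a rise of up to 0.17 or a fall of up to -0.07 on the log2 scale.

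Ccl7 was 4.56, 4.54 and 4.42 CPM in MutAdCtrl and 5.68, 5.29 and 5.35 in MutAdSmim30. Every library with the Smim30 virus stood above every control virus library, as for 6.99% of the genes tested. The difference did not pass the test (log2 0.27, SE 0.18, 95% interval -0.10 to 0.64, adjusted p = 0.674, edgeR). With 3 libraries against 3, an exact permutation test of a single gene cannot go below p = 0.1. Of the 3 members tested 0 were called by edgeR, DESeq2 or limma-voom, and 0 had an unadjusted p under 0.05 in edgeR, where 1.43% of all genes were called.

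Ccr2 had 36, 17 and 32 counts in MutAdCtrl (2.93, 1.64 and 3.15 CPM) and 20, 35 and 37 in MutAdSmim30 (1.92, 2.61 and 2.75 CPM). The ranges of the virus groups overlapped for Ccr2, and its log2 difference was -0.07 with a 95% interval of -0.61 to 0.47 (adjusted p = 0.969, edgeR). Ccl8 had 6, 13 and 7 counts in MutAdCtrl and 6, 6 and 4 in MutAdSmim30, with overlapping CPM of 0.489 to 1.26 and 0.297 to 0.577. The Ccl8 ratio was 0.542, with a counting interval of 0.271 to 1.05 that includes no change. Ccl12 had 0 counts in all MutAdCtrl libraries and 0, 4 and 3 counts in MutAdSmim30. The counting intervals over each group overlapped, at 0 to 0.112 CPM and 0.0755 to 0.387 CPM, and without a filter on low counts Ccl12 was not called (adjusted p = 0.479, edgeR).

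Beside these values, 6 of 7 fibroblast and mesothelial markers tested fell with the Smim30 virus, among them Sparc, Col1a2, Col3a1 and Col1a1, with a median of -1.08 against 0.00 for all genes (log2). In this comparison 1.43% of all genes tested were called in either direction. Sparc was 22.1 ± 2.01 CPM in MutAdCtrl and 10.4 ± 0.967 in MutAdSmim30, and Col1a2 27.5 ± 4.72 and 14.7 ± 0.500. The list summed to 416 to 433 CPM in MutAdCtrl and 374 to 387 in MutAdSmim30, and most of that sum was Pdpn, the tested marker that was not called (322 ± 2.98 and 329 ± 4.11 CPM). The part of this list in the Ccl2 values was not tested.

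**Figure D4:**
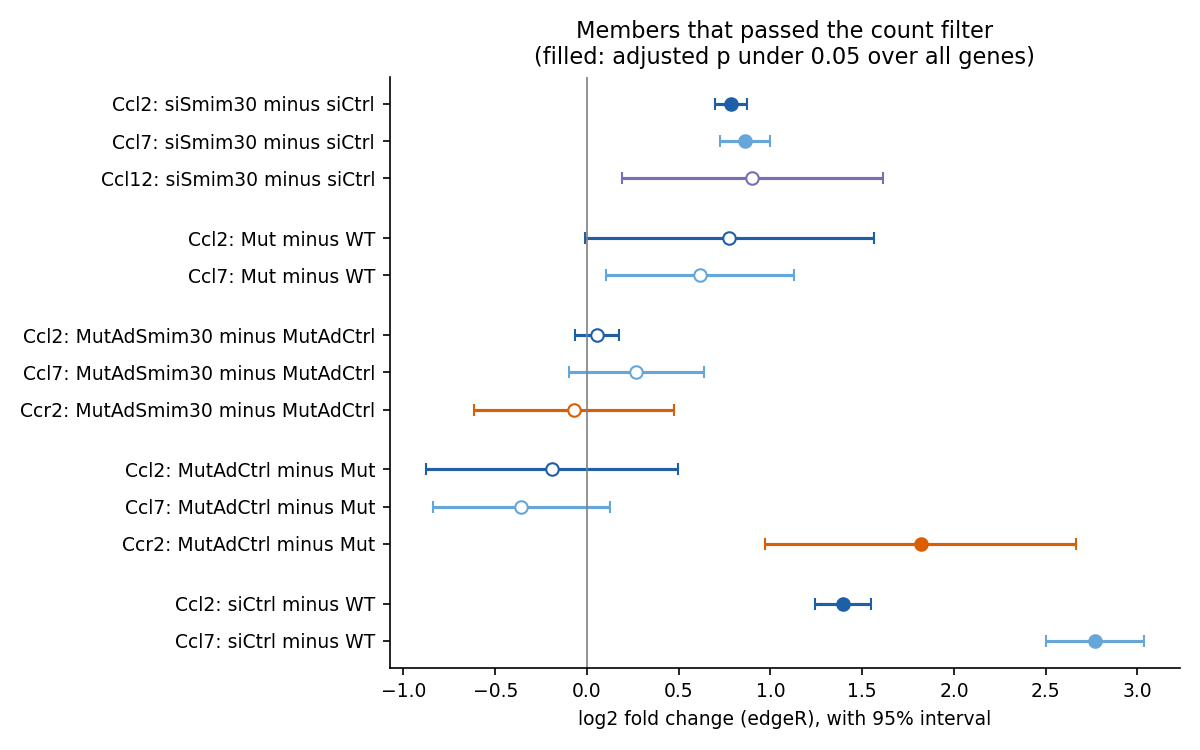
log2 fold change with 95% interval (edgeR) of each member that passed the count filter, in 5 comparisons, with filled points for an adjusted p under 0.05 over all genes. Ccl2 and Ccl7 are filled for the siRNA and for IC-21 against WT, and Ccr2 for the control virus against Mut.

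The differences between the perturbations were tested directly. The mutation effect minus the siRNA effect was -0.02 on the log2 scale for Ccl2 (95% interval -0.65 to 0.61) and -0.27 for Ccl7 (-0.73 to 0.19), with adjusted p = 1 and 0.695 (edgeR). These intervals do not show that the perturbations act alike, since they leave room for differences as large as most of the siRNA effect itself. The mutation effect minus the virus effect was 0.71 for Ccl2 (0.03 to 1.40, adjusted p = 0.328) and 0.34 for Ccl7 (-0.27 to 0.95, adjusted p = 0.705). For Ccr2 it was 1.39 (-0.02 to 2.79, adjusted p = 0.357). No member was called in either test by edgeR, where 2.51% and 3.84% of all genes were. At an unadjusted p under 0.05, Ccl2 alone passed, in the second test. It was called there without replicate 3 of Mut (log2 0.93, adjusted p = 0.0208).

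Ccr2, the receptor, was higher in mutant cells with the control virus than in mutant cells without one. From 3, 3 and 15 counts in Mut (0.377, 0.333 and 1.22 CPM) it stood at 1.64 to 3.15 CPM in MutAdCtrl, and the groups did not overlap, as for 32.8% of genes with MutAdCtrl higher. Ccr2 was 3.53-fold higher (log2 1.82, SE 0.41, 95% interval 0.97 to 2.67, adjusted p = 0.000454, edgeR) and was called with each of the 6 libraries left out in turn, at log2 differences of 1.51 to 2.79. Against this stands a wide background: 53.6% of all genes tested were called in this comparison, 27.1% as higher and 26.5% as lower. Virus, time in culture and the experiment of the series cannot be told apart here.

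The ligands gave another picture in the same comparison. MutAdCtrl minus Mut was -0.19 on the log2 scale for Ccl2 (95% interval -0.88 to 0.49, adjusted p = 0.583, edgeR) and -0.36 for Ccl7 (-0.84 to 0.12, adjusted p = 0.206). Both were called lower only without replicate 3 of Mut, at -0.41 (adjusted p = 0.000675) and -0.67 (adjusted p = 0.00849). Ccl8, with 26 counts in MutAdCtrl against 7 in Mut, was 3.31-fold higher with a counting interval of 1.40 to 9.03. It did not pass the count filter, and without a filter its adjusted p was 0.0481 (edgeR). This comparison and Mut minus WT share the Mut libraries.

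Other chemokine receptors were compared between MutAdCtrl and Mut. Ccr1, which binds CCL3 and CCL5 and also CCL7, rose from 41.6 ± 2.35 to 81.0 ± 1.18 CPM (adjusted p = 1.09e-13, edgeR), while the atypical receptor Ccrl2 fell by 0.34 on the log2 scale (adjusted p = 3.37e-08, edgeR). Neither Ccr1 nor Ccrl2 was called for the mutation or the Smim30 virus. Of the 8 monocyte and small peritoneal macrophage markers tested in MutAdCtrl against Mut, 3 rose and 3 fell. Among all genes tested there, 27.1% were called higher and 26.5% lower. Ly6c2, a surface marker of inflammatory monocytes, was 0.923 ± 0.239 CPM in Mut and 2.84 ± 0.485 in MutAdCtrl, and Fcgr4 was 12.3 ± 2.04 and 64.2 ± 3.39. On the log2 scale, Hp fell by 5.39 and Ms4a4c fell by 1.92. The summed level of the list was 102 to 109 CPM in Mut and 87.9 to 96.8 in MutAdCtrl. Its part in the Ccr2 values was not tested.

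Ccl2 and Ccl7 were higher in the line than in wild-type primary cells. Ccl2 in siCtrl was 2.63-fold that in WT (log2 1.40, SE 0.07, 95% interval 1.24 to 1.55, adjusted p = 1.87e-16, edgeR), and Ccl7 was 6.82-fold (log2 2.77, SE 0.13, 95% interval 2.50 to 3.03, adjusted p = 6.92e-24). Both members tested were called higher, where 40.1% of all genes were called higher and 80.3% in either direction. Scaling mattered here. With library totals only, the differences were 2.10 and 3.47, the median of all genes stood 0.72 higher on the log2 scale, and 9176 of 12207 calls were higher, against 5645 of 11299. The line, its transfection and the experiment cannot be told apart.

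Ccl12 was higher in the line than in WT, while Ccl8 and Ccr2 were detected only in primary cells. Ccl12 had 36 counts over the siCtrl libraries against 2 in WT, a ratio of 19.1 with a counting interval of 4.91 to 164, and without a filter on low counts its adjusted p was 9.17e-05 (edgeR). Ccl8 and Ccr2 had 0 counts in the line, and 4 and 8 counts in WT. Their 95% counting intervals in WT were 0.0374 to 0.351 CPM and 0.118 to 0.541 CPM. Both overlapped that of siCtrl, 0 to 0.134 CPM, so the direction against WT rests on few counts. MutAdCtrl was the group where Ccl8 and Ccr2 were highest. Its level stood at 7.26-fold the floor of 3 counts over siCtrl for Ccl8 and 23.7-fold for Ccr2. These folds leave out counting error and are not lower bounds. Ccr2 in MutAdCtrl also stood 9.44-fold above WT, where it had 8 counts, with a counting interval of 4.58 to 22.6. Of the 10 monocyte and small peritoneal macrophage markers, Plac8, F13a1, Ms4a4c, Chil3 and Cd226 were also at 0 in both IC-21 groups. Others were not. Fcgr4 was 23.4 CPM in siCtrl and 26.1 in siSmim30 against 12.1 in WT, and Irf4 was 2.04 and 2.71 against 4.67. The list summed to 24.2 to 28.7 CPM in siCtrl and 27.5 to 32.1 in siSmim30, against 84.8 to 92.4 in WT. The fibroblast genes Sparc, Pdgfra and Dcn were at 0 in both IC-21 groups too, as was Lum, which was also at 0 in WT. Fibroblast and mesothelial markers summed to 782 to 854 CPM in WT and Mut and 374 to 433 in the virus groups. Most of these sums was Pdpn, at 550 to 639 CPM in WT and Mut and 319 to 332 in the virus groups. The part of these lists in the primary values was not tested. In IC-21 the single gene Pdpn gave 88.7 to 135 CPM of a list sum of 89.0 to 136, and 9 or 10 of the 11 markers were at or under 3 counts.

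Other CC chemokine ligands were compared from a list of 13. In the knockdown, 2 of 6 tested rose and 0 fell, with a median of 0.29 against 0.00 for all genes. They were the macrophage inflammatory protein genes Ccl4 and Ccl3, at 0.37 (adjusted p = 1.41e-12, edgeR) and 0.32 (adjusted p = 8.32e-11), both smaller in log2 size than Ccl2 and Ccl7. In the mutant, 3 of 8 rose and 0 fell, namely Ccl22 (1.32, adjusted p = 1.71e-06), Ccl4 (0.70, adjusted p = 0.000433) and Ccl3 (0.55, adjusted p = 0.0039). With the Smim30 virus, Ccl6 (0.35, adjusted p = 4.8e-14) and Ccl9 (0.22, adjusted p = 1.56e-07) rose and Ccl5 (-0.19, adjusted p = 0.0222) fell, of 7 tested. Of all genes tested, 2.39% were called higher in the knockdown and 3.68% in the mutant, and 1.43% in either direction with the virus. Ccl22 is also on the list of dendritic cell markers above. In MutAdCtrl against Mut, 7 of 8 fell and 1, Ccl6, rose, with a median of -1.72, while Ccl2 and Ccl7 stood at -0.19 and -0.36. Of all genes tested there, 26.5% were called lower and 27.1% higher. Per length, Ccl3 stood 10.8 to 51.6 times above Ccl2 in the primary libraries and 7.32 to 11.4 times in IC-21.

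**Figure D5:**
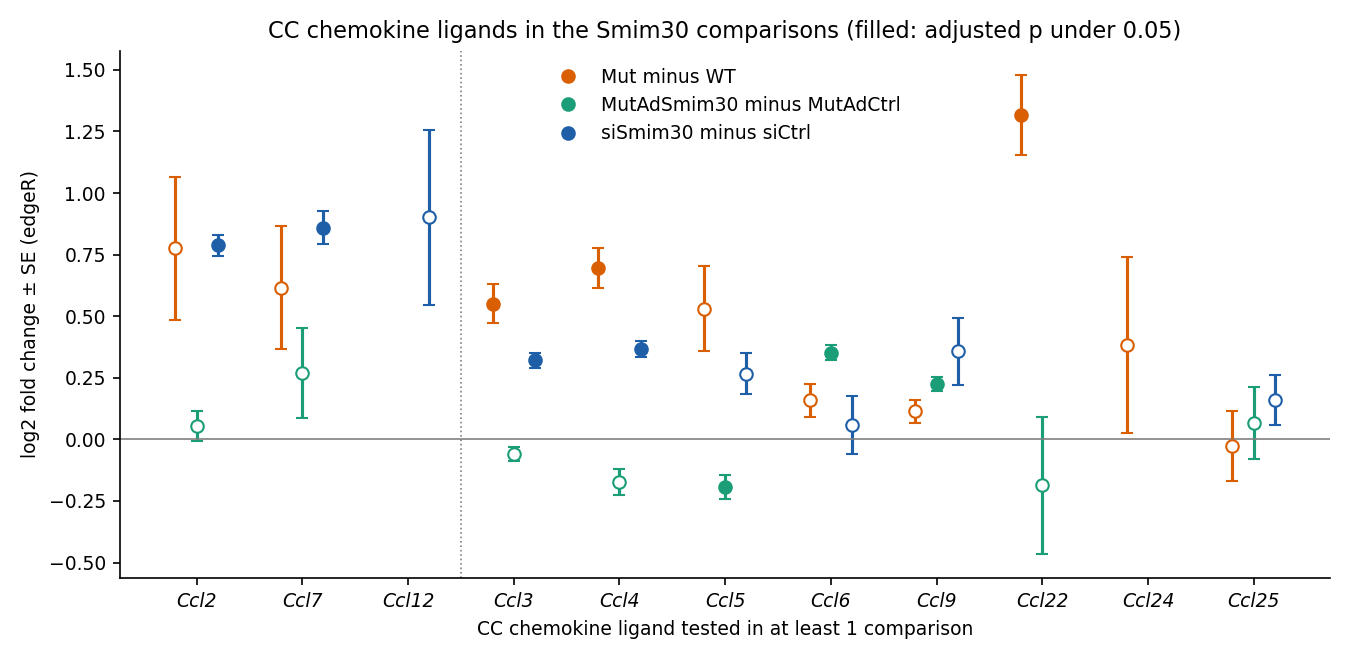
log2 fold change ± SE (edgeR) of CC chemokine ligands in Mut minus WT, MutAdSmim30 minus MutAdCtrl and siSmim30 minus siCtrl, with the members left of the dotted line and filled points for an adjusted p under 0.05. In the knockdown Ccl2 (0.79) and Ccl7 (0.86) lie above Ccl3 (0.32) and Ccl4 (0.37), and in the mutant Ccl22 (1.32), Ccl4 (0.70) and Ccl3 (0.55) are filled while Ccl2 and Ccl7 are not.

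Among genes around the chemokines in the pathway, those that passed the test in the mutation, siRNA and Smim30 virus comparisons did so with small log2 differences. Of 21 transcription factors known to act on Ccl2-type genes, 5 rose and 0 fell in the knockdown, with a median of 0.08. Nfkbiz, a nuclear cofactor of NF-kB, rose by 0.22 (adjusted p = 0.000374, edgeR), Jun by 0.19, the NF-kB subunit Rel by 0.19 and Junb by 0.30. Atf3 was the fifth, at 0.15 (adjusted p = 0.0276). In the mutant 6 of 21 rose and 0 fell, with a median of 0.10, among them Atf3 (0.40, adjusted p = 1.05e-06), Fosl2 (0.27), the NF-kB subunit Nfkb1 (0.22) and Junb (0.22). With the Smim30 virus 0 rose and 1 fell, Cebpb (-0.20, adjusted p = 0.0138). Of all genes tested, 2.39% were called higher in the knockdown and 3.68% in the mutant, and 1.43% in either direction with the virus.

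Of 10 factors that set the decay of such messages, 2 rose in the knockdown. Zfp36, which encodes tristetraprolin, a protein that speeds the decay of AU-rich cytokine messages, rose by 0.32 (adjusted p = 0.000147, edgeR), and the endonuclease gene Zc3h12a by 0.23 (adjusted p = 0.000665). Zfp36 also rose in the mutant, by 0.29 (adjusted p = 0.0016), as the only 1 of the 10, and with the Smim30 virus 1 fell, Zfp36l2 (-0.13, adjusted p = 0.0223). Of 16 genes of CCR2 signalling and turnover, 1 rose in the mutant (Jak2, 0.26), 1 rose in the knockdown (Pik3cg, 0.28, of 15 tested) and 1 fell with the virus (Arrb2, -0.16). In the mutant 6.3% of all genes tested were called, in the knockdown 3.48% and with the virus 1.43%, so that 1 call among these genes is near the background. Of the type I interferon genes, 0 of 10 tested were called in the knockdown by edgeR, and 1, Stat2, had an unadjusted p under 0.05 (log2 -0.18), with a median of -0.06. The list summed to 218 to 227 CPM in siCtrl and 206 to 222 in siSmim30. In MutAdCtrl against Mut, 8 of the 21 transcription factors rose and 10 fell, and 5 of the 10 decay factors rose and 2 fell. Of the 16 CCR2 signalling genes 7 rose and 6 fell, where 27.1% of all genes tested were called higher and 26.5% lower. Differences there were not all small: Nfkbiz was 160 to 182 CPM in Mut and 586 to 632 in MutAdCtrl.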

How the data were processed

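Total RNA of 18 LPS-treated samples in 6 groups of 3 was sequenced as strand-specific libraries, per the labels' protocols. The authors deposited counts of read pairs over the exons of each gene, not normalized, counted by featureCounts 2.0.3 with the reverse strand setting against GENCODE M25 (GRCm38), per the file headers, after fastp and HISAT2, per the submitters' processing notes. The exon length of each gene stands in another deposited column. Of 55401 identifiers, 55141 matched a symbol in the GENCODE M21 tables and 260 did not. Smim30 was taken as 2610001J05Rik, from general knowledge. The files hold no mitochondrial counts.

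CPM used all counts of a library, and RPKM was CPM per kilobase of exon. Differences were tested with edgeR 4.0.16 (R 4.3.3; filterByExpr with a minimum count of 10, TMM scaling, robust quasi-likelihood test, each pair of groups fitted on its own 6 libraries) and adjusted by Benjamini-Hochberg over all genes tested at 0.05. Interaction contrasts used the 12 libraries of 4 groups. The edgeR fits were tested on simulated counts. Counting intervals, and those of ratios, are exact, at 95%, and cover counting error only. Folds against a floor have no interval. The members and lists were chosen with earlier results of these data known. Named genes were all 5 members, up to 4 called genes per list and comparison by smallest adjusted p (others named were chosen after their values were seen), and the 3 genes most like each member. A listed receptor gene is not reported here. Alternatives were RLE scaling, library totals, other count filters, DESeq2 1.42.0, limma-voom 3.58.1, a fit of all 18 libraries, a replicate block and leaving out each library. A fit without a ribosomal RNA gene was added after seeing the data. No replicate pair was alike within counting noise (chi-square per gene 1.67 to 5.24).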

Additional observations from a re-analysis of the deposited data

How the results depend on the processing

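No call of a member was lost under any alternative. Ccl2 and Ccl7 in the knockdown and in IC-21 against WT, and Ccr2 in MutAdCtrl against Mut, were called under every alternative that gave a value. In Mut minus WT, Ccl2 gained a call with limma-voom (log2 0.72, adjusted p = 0.0139), and Ccl2 and Ccl7 gained calls when all 18 libraries were fitted together (0.77, adjusted p = 0.0262, and 0.60, adjusted p = 0.0449, edgeR); the cause was not tested. Leaving out 1 library gave 0.54 to 0.99 for Ccl2 and 0.42 to 0.92 for Ccl7, with calls only without Mut replicate 3. In MutAdCtrl minus Mut the ranges were -0.41 to 0.042 and -0.67 to -0.16, again called only without Mut replicate 3. For the mutation minus the virus effect of Ccl2 the range was 0.48 to 0.93. Differences near 0 that were not called changed sign with 1 library left out, over ranges of -0.29 to 0.081 for Ccr2 and -0.029 to 0.12 for Ccl2 with the Smim30 virus, and of -0.25 to 0.19 for Ccl2, -0.46 to 0.053 for Ccl7 and -1.36 to 0.33 for Ccl12 in the mutation minus the siRNA effect; the cause was not tested. With library totals the mutation minus the siRNA effect of Ccl2 was 0.0036.

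The fit of all 18 libraries called 1198 genes in Mut minus WT, 87 for the Smim30 virus and 263 for the siRNA, against 788, 181 and 472, and DESeq2 called 68 for the virus and 296 for the siRNA. Leaving out 1 library gave 469 (without Mut replicate 2) to 957 genes in Mut minus WT and 309 (without siCtrl replicate 2) to 422 for the siRNA. For the virus it gave 66 (without MutAdSmim30 replicate 3) to 453 (without MutAdCtrl replicate 3), with 106 without MutAdSmim30 replicate 2 and 82 without MutAdCtrl replicate 1. For the mutation minus the siRNA effect it gave 267 to 571 (without Mut replicate 3), and for the mutation minus the virus effect 350 to 747. With library totals, 256 of 415 calls of the mutation minus the siRNA effect were higher, against 185 of 372. Among the gene lists, calls changed with scaling for the interferon list in Mut minus WT (3 with RLE and 5 with library totals, against 4), the CCR2 signalling list there (2 with library totals, against 1) and the transcription factors in the knockdown (4 with library totals, against 5). No list's calls changed for the virus.

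Deviations of same-numbered samples from their group means correlated at -0.06 to 0.06. With 3 samples per group, such values do not show whether same-numbered samples were paired. With replicate number as a block the calls were 782 for Mut minus WT, 253 for the virus and 546 for the siRNA. Ccl2 and Ccl7 then had 0.75 (adjusted p = 0.495) and 0.59 (0.17) in the mutant and 0.78 and 0.85 in the knockdown, and the block changed no call of a member. Every siSmim30 sample correlated best with the siCtrl sample of its own number, but only at 0.012 to 0.015. Replicates 2 and 3 of siCtrl also correlated best with the WT samples of their number, at 0.045 and 0.035. Since WT is of other cells, the siRNA values do not show a pairing. Depth limits Ccl12, Ccl8 and Ccr2, whose counts in most libraries lie near the floor.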

Other observations

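Genes whose levels ran most like those of each member were listed by Pearson's r of log2 CPM over the 18 libraries, among 9173 genes. The libraries fall into 6 groups and 2 kinds of cells, so these values describe the groups as much as the libraries. For Ccl2 they were Cops2 (0.94), a subunit of the COP9 signalosome, the endocytic adaptor Dab2 (0.93) and the lysosomal protease Ctsc (0.93). For Ccl7 they were Nol4l, Phf5a and Tmpo (0.98 each), and for Ccl12 Tmub1 (0.95), Rpp30 and Rsl1d1 (0.93 each). For Ccr2 they were Cast (0.99), which encodes the calpain inhibitor calpastatin, Cox7a2l (0.98) and Sdha (0.98). Ccl8 had too few counts to enter.

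With the group mean taken off each value, the nearest genes of Ccl2 were Pcbp2 (0.89), the interleukin-13 receptor chain Il13ra1 (0.88) and Rab12 (0.84), and those of Ccl7 were Setdb2 (0.89), Cd47 (0.89) and Casp8ap2 (0.87). For Ccl12 they were Fbxo10, Ubl4a (0.86 each) and Rpp30 (0.81), and for Ccr2 Zfp41 (0.88), Ryk (0.83) and Zfp503 (0.82). None of the genes named for Ccl2, Ccl7 or Ccr2 was on both of that member's lists, while Rpp30 was on both for Ccl12. Among members, Ccl2 and Ccl7 had r = 0.94 over the 18 libraries and 0.81 with group means taken off. Ccl7 and Ccr2 had -0.81 and -0.84. Within groups, Mut replicate 3 stood apart for both, with Ccl7 at 3.43 CPM and 15 Ccr2 counts. Mut replicates 1 and 2 had Ccl7 at 7.30 and 6.76 CPM and 3 Ccr2 counts each. The r without that library was not computed. Ccl8 and Ccr2, both at 0 in IC-21, had 0.90 over all libraries but -0.30 with group means taken off.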
